A study of Mus musculus with 28 samples.

Results

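The genes described here encode the subunits of the mitochondrial respiratory chain and of ATP synthase, taken apart by the genome that holds them. They are the protein-coding genes of the deposited count table whose mouse symbol starts with mt-, or is Ndufa, Ndufb, Ndufc, Ndufs or Ndufv with a number, or starts with Uqcr, Cox4 to Cox8 or Atp5. The rule uses symbols alone and no measured value. It found 92 genes of 50686 in the table, 13 in the mitochondrial genome and 79 in the nucleus. The mitochondrial 13 comprise 7 subunits of complex I, 1 of complex III, 3 of complex IV and 2 of complex V. The nuclear 79 comprise 35 subunits of complex I, 8 of complex III, 19 of complex IV and 17 of complex V.

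The 28 libraries, in 6 groups, hold RNA of dissected dorsal hippocampus. The animals were male mice of the C57Bl6 strain. Their age, the dose of each compound and the timing were not stated. Basal mice (n = 4) had no auditory fear conditioning and no treatment. In the other 5 groups mice underwent conditioning, which teaches them that a sound predicts an aversive event, and were given vehicle (Vehicle, n = 4), Cort (n = 5), RU486 (n = 5), C108 (n = 5) or C118 (n = 5). The series describes the treatments as ligands of GR, the glucocorticoid receptor. The labels do not spell out Cort, RU486 is mifepristone, which blocks GR and the progesterone receptor, and C108 and C118 are code names. All libraries are of one sex and strain. Libraries are named by group and by the sample number of their title.

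Complex I (NADH dehydrogenase), complex III (cytochrome bc1) and complex IV (cytochrome c oxidase) pass electrons from NADH to oxygen and pump protons across the inner mitochondrial membrane. ATP synthase, also called complex V, uses the returning protons to make ATP. Each of these complexes mixes subunits from both genomes: the mitochondrial genome encodes hydrophobic core subunits and is transcribed as long polycistronic RNAs from both strands, while the remaining subunits are made from single nuclear genes and imported. Neurons depend on this pathway for the energy of synaptic signalling, and glucocorticoids are known to act on mitochondria in the brain.

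Gene counts totalled 16.2 to 20.3 M per library (M, 10 to the power of 6). Levels are in CPM, counts per 10 to the power of 6 counts after scaling of library sizes. The 9 hippocampus markers examined were all detected, with summed levels of 928 to 1765 CPM over the libraries. Vehicle 16 stood apart with a thalamus marker score of 2.01, a neocortex score of 0.66 and a hippocampus score of -0.54, and Vehicle 29 had a hippocampus score of -0.69, where a score is the mean log2 CPM of a list's genes after centring each gene on all 28 libraries. RU486 6 and RU486 25 had the highest choroid plexus scores, 4.11 and 3.26, with 4346 and 2682 CPM on its 10 markers against 33.7 to 1697 in the other 26 libraries. Cort 36, C108 39 and C118 38 had the lowest astrocyte scores (-0.36, -0.56 and -0.64, against -0.20 to 0.34 in the other 25) and the lowest endothelial scores (-0.76, -1.28 and -1.32, against -0.67 to 1.06). Their microglia scores were the lowest too (-0.44, -0.38 and -0.42, against -0.10 to 0.37) and their neuron scores the highest (0.21, 0.23 and 0.22, against -0.14 to 0.091). In bulk tissue, fewer cells of a type and less RNA per cell cannot be told apart.

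The mitochondrial genes need a remark on sequence before their values. A block of chromosome 1 carries annotated copies of 7 of them, on the minus strand between 24611535 and 24616197 (mm10). The copies of mt-Co2, mt-Co3, mt-Atp6, mt-Nd3 and mt-Nd4l covered nearly the whole gene, and the stretches that aligned were 100% identical. Of the 100-base windows of each gene, 99.9% of those of mt-Co3, 99.5% of mt-Co2, 99.5% of mt-Atp6, 98.5% of mt-Nd4l and 97.6% of mt-Nd3 also occurred in another annotated gene. The copy Gm28439 covered 876 of the 1378 bases of mt-Nd4, with 60.8% of its windows shared. The copy Gm29216 aligned over 483 of the 1545 bases of mt-Co1, with 30.8% of its windows shared. The stretches shown here, from the GENCODE M21 transcripts, illustrate both cases. The first pair holds the only mismatch found in the aligned part of mt-Co1, A1066T, with positions counted from 1 at the first base of mt-Co1 and the differing base in capitals. The third stretch is from mt-Co2 and reads the same, base for base, in its copy Gm28661.
mt-Co1, chrM:6390-6469, plus strand: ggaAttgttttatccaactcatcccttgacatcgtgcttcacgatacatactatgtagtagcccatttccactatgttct
Gm29216, chr1:24616109-24616188, minus strand: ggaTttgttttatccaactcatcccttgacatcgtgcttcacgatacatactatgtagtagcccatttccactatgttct
mt-Co2, chrM:7313-7392, plus strand: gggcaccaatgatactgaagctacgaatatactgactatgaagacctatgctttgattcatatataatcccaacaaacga

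All of the 13 mitochondrial genes but mt-Nd6 fell into 2 ranges of level that followed their place on the genome. Per kilobase of gene, mt-Co1, the catalytic core of complex IV, had 14289 CPM per kb (the mean of the group means), mt-Cytb, the cytochrome b of complex III, 10123, and mt-Nd1, a membrane subunit of complex I, 8789. The complex I genes mt-Nd2, mt-Nd4 and mt-Nd5 had 5183, 3617 and 3220 CPM per kb. The 6 neighbouring genes from mt-Co2 to mt-Nd4l (chrM:7013-10173) were far lower, at 31.3 CPM per kb for mt-Co2, 28.3 for mt-Atp6, 24.2 for mt-Co3, 9.82 for mt-Nd3, 7.89 for mt-Atp8 and 7.42 for mt-Nd4l. mt-Nd6, a complex I gene on the opposite strand, lay between the 2 ranges at 89.2 CPM per kb.

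The plot of the 13 genes by group shows that both ranges were present in every group.

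**Figure D1:**
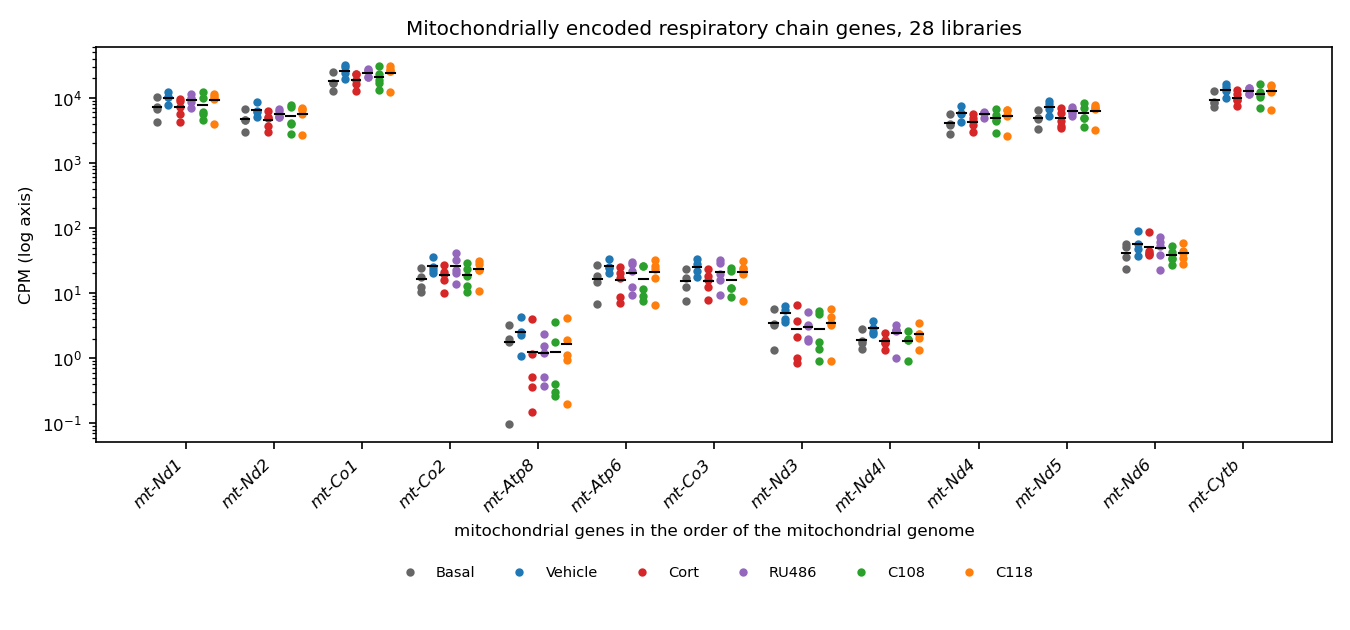
Levels of the 13 mitochondrially encoded genes in CPM on a log axis, in the order of the mitochondrial genome, with 1 point per library (n = 4 in Basal and Vehicle, n = 5 in the other groups) and a line at each group's mean. The 6 genes from mt-Co2 to mt-Nd4l lie at 40.9 CPM or below in every library, and mt-Co1 at 12131 CPM or above.

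The 5 low genes with a nearly complete copy had 0.46 to 8.5 times the counts of the copy itself within a library. Over the 28 libraries, mt-Co2 had 11350 counts and Gm28661 had 8666, and the ratio within a library ran from 1.08 to 1.98. mt-Atp6 had 10066 counts against 12606 on Gm10925 (ratio 0.46 to 1.08), and mt-Co3 had 9964 against 6074 on Gm28437 (1.36 to 2.41). The smaller genes mt-Nd3 and mt-Nd4l had 1771 and 1162 counts, against 918 and 961 on their copies, with ratios of 1.21 to 8.5 and 0.72 to 1.65. The mt-Nd3 ratio was highest in C108 26 (34 counts against 4), C108 34 (27 against 4) and C118 33 (65 against 13), and its median was 1.93. The 2 genes with a partial copy differed: mt-Nd4 had 259 to 985 times the counts of its copy, and mt-Co1 had 930 to 2570 times. mt-Atp8, which had few counts too (2 to 76 per library), has no annotated copy but lies between mt-Co2 and mt-Atp6.

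**Figure D2:**
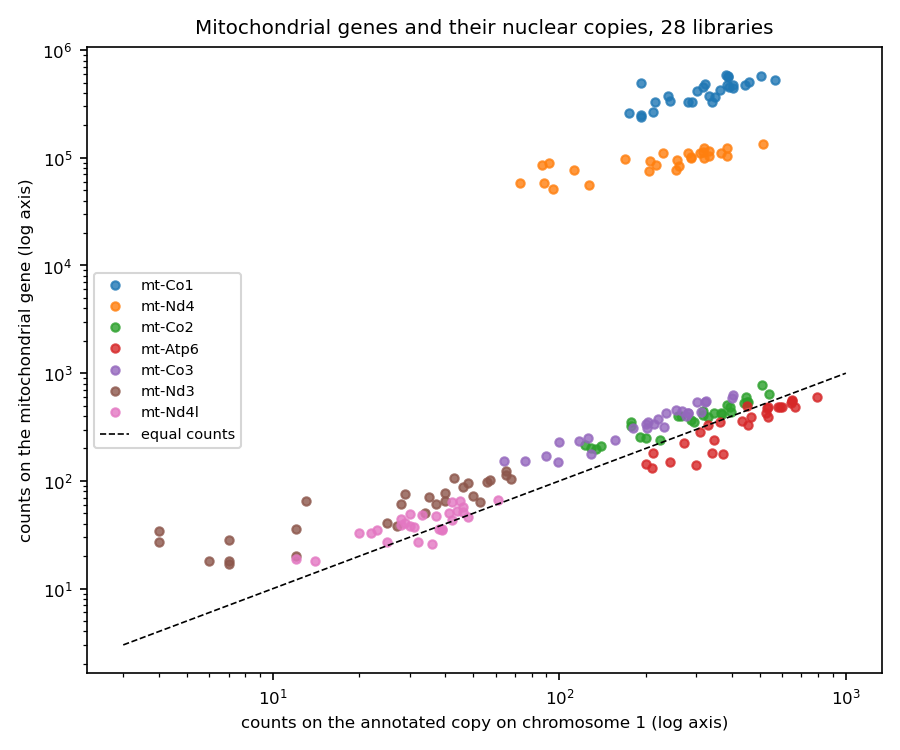
Counts on 7 mitochondrial genes against counts on their annotated copies on chromosome 1, both on log axes, with 1 point per library and gene and a dashed line at equal counts. The 5 genes with a nearly complete copy lie between 0.46-fold and 8.5-fold of equal counts, with mt-Nd3 the farthest above the line, and mt-Nd4 and mt-Co1 lie 259-fold to 2570-fold above it.

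Reads that aligned to more than one place made up 0.01% to 0.43% of reads in the table's own summary row. No source used here states how the aligner placed reads between a gene and its copy. The counts of mt-Co2, mt-Atp6, mt-Co3, mt-Nd3 and mt-Nd4l, which share nearly all of their sequence with a nuclear copy, are therefore uncertain as measures of the mitochondrial transcripts.

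Levels of the mitochondrial genes differed between libraries of the same group more than those of most nuclear members. The SD of log2 CPM within groups was 0.37 to 0.49 for the 6 genes with high counts, and its median over the 76 nuclear members tested was 0.18, near the median of 0.19 over all 16735 genes tested. Among genes with a mean of at least 10 CPM the medians were 0.17 for 69 nuclear members and 0.15 for all 9919. Above this floor the nuclear members thus varied somewhat more than all genes, but the genes were not matched by level. For mt-Co1, the Basal libraries 1, 9, 14 and 27 had 16946, 24712, 16822 and 12879 CPM, and the Vehicle libraries 3, 16, 23 and 29 had 19154, 24391, 31953 and 29576. The Cort libraries 4, 11, 17, 30 and 36 had 18770, 23595, 23304, 16407 and 12895 CPM of mt-Co1. RU486 libraries 6, 12, 19, 25 and 32 had 20820, 27401, 26720, 21233 and 26015. Every RU486 library lay inside the range of Vehicle, and 3 of 5 Cort libraries lay below it.

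In C108 libraries 8, 21, 26, 34 and 39, mt-Co1 was at 23082, 31082, 16957, 18905 and 13119 CPM. In C118 libraries 7, 13, 20, 33 and 38 it was at 25687, 27612, 30587, 25427 and 12131 CPM. Both groups held libraries near the top and near the bottom of the whole series, and all 6 groups overlapped.

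The genes with high counts rose and fell together from library to library. The log2 ratio of mt-Co1 to mt-Cytb had an SD of 0.084 over the 28 libraries, against 0.41 for mt-Co1 and 0.39 for mt-Cytb alone. The ratio of mt-Nd1 to mt-Nd2 had an SD of 0.12 on the log2 scale, against 0.49 and 0.46. Other pairs were looser, with 0.13 for mt-Co1 over mt-Nd5, 0.14 for mt-Nd4 over mt-Nd5 and 0.19 for mt-Nd1 over mt-Cytb. mt-Nd6, transcribed from the other strand, did not keep such a ratio: log2 of mt-Nd6 over mt-Cytb had an SD of 0.49, as wide as that of mt-Nd6 alone (0.50). mt-Nd6 was highest in Vehicle 29 (88.8 CPM) and Cort 17 (87.3 CPM) and lowest in RU486 6 (22.6 CPM). Basal 27 had the second lowest mt-Co1 of all libraries but the highest mt-Nd6 of its group, at 55.9 CPM against 23.5 to 50.4 in the other Basal libraries.

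mt-Co1 was lowest in C118 38, Basal 27, Cort 36 and C108 39, at 12131 to 13119 CPM, and the next library, Cort 30, had 16407 CPM. The same 4 libraries were the lowest 4 for 9 of the 13 mitochondrial genes, a count that includes mt-Co1, by which they were picked. The genes with high counts vary with mt-Co1, so the count follows in part from the pick. It also includes mt-Co2, mt-Co3 and mt-Atp6, whose counts are uncertain. Among the nuclear members the same 4 libraries were the lowest for 1 of 76, Ndufc2, an accessory subunit in the membrane arm of complex I. Ndufc2 had 56.9, 56.7, 56.7 and 55.1 CPM in those libraries and 69.7 to 129 CPM in the other 24. How many of all tested genes were lowest in the same 4 libraries was not counted, so neither count is a result about the members. In 4 of 6 groups the library with the lowest mt-Co1 had the group's highest sample number, the exceptions being Vehicle and RU486. The labels do not say what the number stands for, and its part in the levels was not tested beyond a fit with the number as a covariate, given with the comparisons. Of the 4, the astrocyte markers (9 of 9 tested) summed to 3400 CPM in C118 38, 3620 in C108 39 and 3937 in Cort 36 but to 5164 in Basal 27, and the endothelial markers (8 of 8 tested) to 29.9, 29.2, 45.6 and 129 CPM. Groups ran from 3400 to 6980 CPM for astrocyte and from 29.2 to 147 CPM for endothelial markers, no list had a marker at 0 throughout, and the part of cell content in the mitochondrial levels was not tested.

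As a share of gene counts, the 13 mitochondrial genes made up 3.06% to 8.20% of a library. Group means were 4.85% ± 1.29 in Basal (SD, n = 4), 6.98% ± 1.30 in Vehicle (SD, n = 4), 5.06% ± 1.26 in Cort, 6.41% ± 0.67 in RU486, 5.45% ± 1.79 in C108 and 6.27% ± 1.89 in C118 (SD, n = 5 each). The 79 nuclear members together made up 0.77% to 1.10%, with group means from 0.86% ± 0.066 in Basal to 0.92% ± 0.11 in RU486. The 2 shares did not always move together: Basal 27 had a low mitochondrial share of 3.47% and a nuclear share of 0.94%, above the other 3 Basal libraries. In Vehicle 3 both shares were the lowest of the group, at 5.22% and 0.79%. No measure of their joint variation over all libraries was computed.

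Of the nuclear members, 76 of 79 passed the filter on low counts. Cox8b and Cox7b2, isoforms known from muscle and testis, had 123 and 166 counts in all 28 libraries together, and Cox8c had 0. The median level per length was 36.2 CPM per kb for the 35 complex I subunits, 88.9 for the 8 of complex III, 67.8 for the 16 tested of complex IV and 55.9 for the 17 of complex V. Cox8a, a small complex IV subunit, was the highest nuclear member at 526 CPM per kb. Atp5a1 and Atp5b, the alpha and beta subunits of the catalytic head of ATP synthase, followed among complex V at 258 and 251 CPM per kb. The lengths used are unions of exons over all annotated transcripts, and with the longest transcript the 4 medians were 62.0, 104, 106 and 94.7 CPM per kb, so the order of complexes III and IV is not settled.

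Subunits with tissue-specific isoforms were read almost wholly from the general form. Per length, Cox4i1, which nearly all tissues use, had 163 CPM per kb, and Cox4i2, known from lung and from low oxygen, 0.98. Cox6a1 had 331 CPM per kb and Cox6a2, the form of heart and skeletal muscle, 3.34. Cox6b1 had 250 and the testis form Cox6b2 1.09, and Cox7a2 had 147 and the muscle form Cox7a1 1.52 CPM per kb. Subunit c of ATP synthase, made as the same mature protein from 3 genes, came mostly from Atp5g3 (110 CPM per kb) and Atp5g1 (14.04), with Atp5g2 at 1.07. Of the 100-base windows of Atp5g2, 34.7% also occurred in another annotated gene, and 5.9% of those of Atp5g1, so a part of these counts is uncertain.

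Among these isoforms Cox4i2 was lowest in C118 38 and C108 39, at 0.20 and 0.36 CPM, the libraries with the lowest endothelial scores. It had 0.86 ± 0.21 CPM in Basal (SD, n = 4), 0.59 ± 0.14 in C108 and 0.59 ± 0.30 in C118 (SD, n = 5 each). Neither difference from Basal passed (adjusted p = 0.30 and 0.34, edgeR), and the part of vessel cells in its level was not tested.

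Some nuclear members kept a steady ratio over the 28 libraries and others did not. Atp5a1 and Atp5b had SDs of 0.10 and 0.097 on the log2 scale, and their ratio an SD of 0.048. Cox6c, a small subunit of complex IV, had an SD of 0.31, and its ratio to Atp5b one of 0.32. The ratio of Cox8a to Ndufs1 had an SD of 0.24, wider than that of either gene alone (0.18 and 0.14). RU486 19 held the highest level of 53 of the 76 members and had the highest mean centred level, 0.34 on the log2 scale. The mean centred level of the nuclear members was below 0 in 6 of the 7 libraries numbered 1 to 9 (range -0.21 to 0.033), and below 0 in 5 of the 21 with higher numbers (range -0.085 to 0.34). The 75 genes of the cytoplasmic ribosome were below 0 in 6 of the former and 6 of the latter, with scores of -0.22 to 0.083 and -0.22 to 0.36, and RU486 19 was highest there too (0.36). The part of this in the comparisons was not tested beyond the fits with the ribosomal share or the sample number as a covariate.

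**Figure D3:**
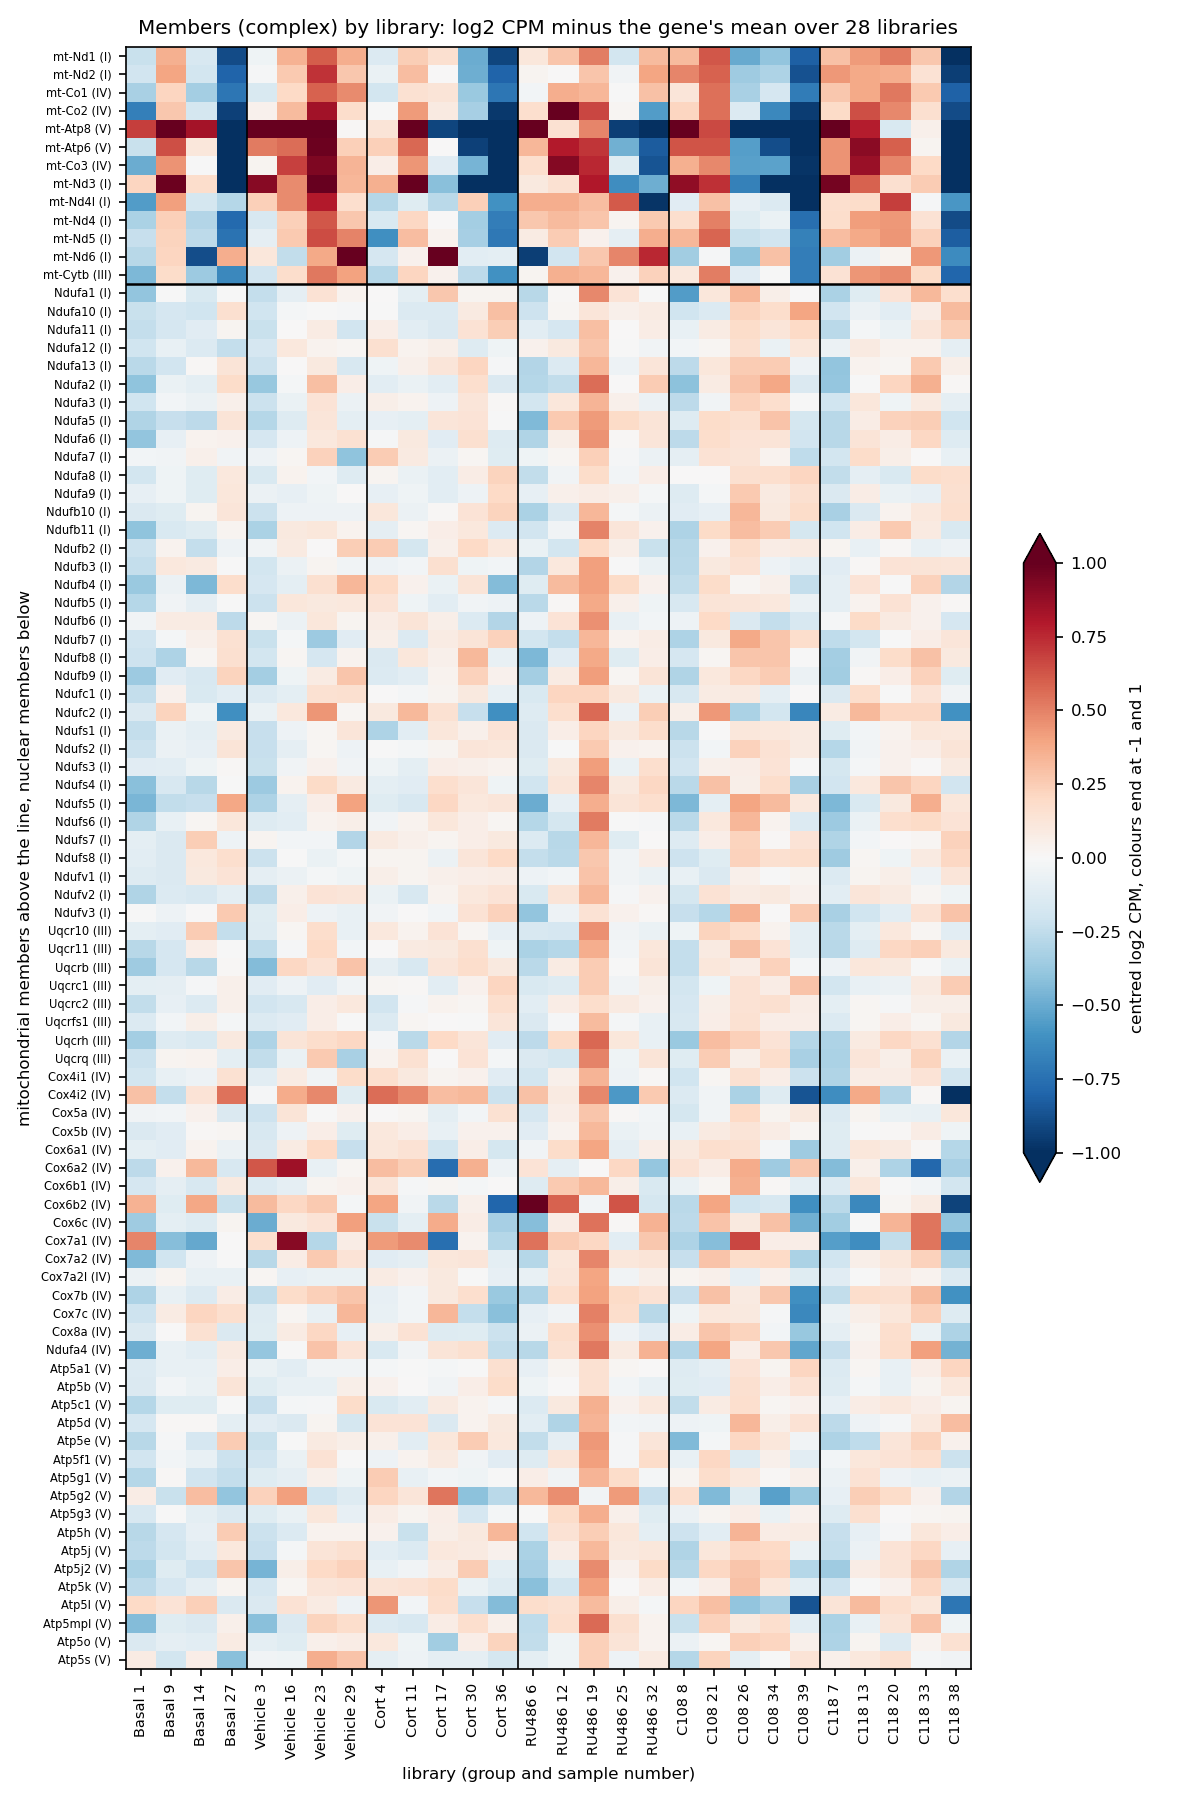
Log2 CPM of the 13 mitochondrial and 76 tested nuclear members minus each gene's mean over the 28 libraries, with 1 row per gene (its complex in brackets) and 1 column per library, sorted by group and sample number. Most mitochondrial rows share blue columns at Basal 27, Cort 36, C108 39 and C118 38, and most nuclear rows share a red column at RU486 19.

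**Figure D4:**
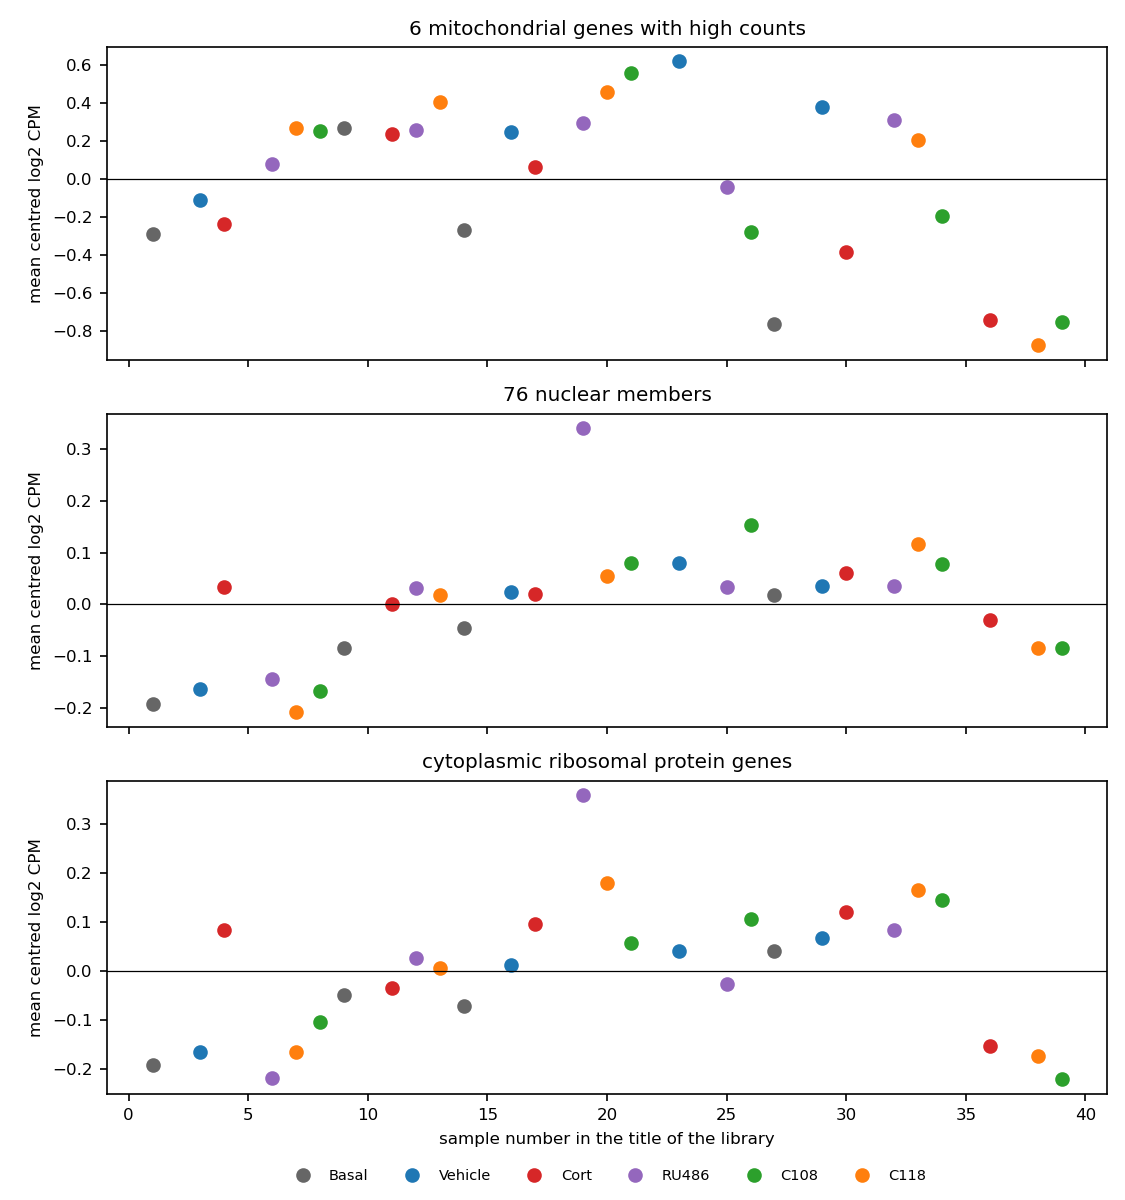
Mean centred log2 CPM of the 6 mitochondrial genes with high counts, of the 76 nuclear members and of the genes of the cytoplasmic ribosome, against the sample number in the title of each library, with 1 point per library coloured by group. The mitochondrial score is lowest in 4 libraries with numbers from 27 to 39, and the nuclear and ribosomal scores are low in 6 of 7 libraries numbered 1 to 9.

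Vehicle against Basal asks what conditioning with vehicle changed. All 13 mitochondrial genes had higher means in Vehicle, by a median of 0.54 on the log2 scale, but 0 of 13 passed edgeR's quasi-likelihood test at an adjusted p of 0.05 (smallest adjusted p = 0.22), and 3 had an unadjusted p under 0.05. DESeq2 and limma-voom also called 0. By edgeR, the median was 0.52 for the 6 genes with high counts and 0.60 for the 6 from mt-Co2 to mt-Nd4l. In this comparison 4.11% of the 16735 genes passed, 18.1% had an unadjusted p under 0.05, and the median over all genes was near 0. mt-Cytb, with the smallest p, differed by 0.54 ± 0.24 (log2 fold change ± SE), with a 95% interval of 0.051 to 1.02. mt-Co1 differed by 0.56 ± 0.26 (adjusted p = 0.24, edgeR), and the groups overlapped from 19154 to 24712 CPM. The 15 thalamus markers, summing to 446 to 557 CPM in Basal and 413 to 1346 in Vehicle, differed by a median of 0.86 (log2, 0 of 15 called), and their part in this was not tested beyond the fits with tissue scores as covariates and without Vehicle 16 and 29 (median 0.55). The 10 choroid plexus markers had a median of 1.18 (10 of 10 positive, 0 called), and the 9 astrocyte markers one of 0.16 (9 of 9 positive, 1 called higher). The choroid plexus markers summed to 452, 952, 46.0 and 167 CPM in Vehicle 3, 16, 23 and 29, against 33.7 to 288 in Basal. The hippocampus markers had a median of -0.21 (2 of 9 called lower) and the endothelial markers one of -0.54 (1 of 8 called lower), and the part of these lists was not tested. The median was 0.44 to 0.76 when any 1 library was left out, and it was 0.95 without the 7 libraries numbered 1 to 9, an alternative chosen after the data were seen.

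The nuclear members differed far less between Vehicle and Basal. Their median log2 fold change was 0.055, with 53 of 76 positive and 0 passing (3 at an unadjusted p under 0.05; smallest adjusted p = 0.22, edgeR). DESeq2 and limma-voom called 0, and the fit without Vehicle 3 called 1, Uqcrb, a small subunit of complex III (log2 fold change 0.42 there, adjusted p = 0.026, against 0.26 and 0.25 with all libraries). For 68 of the 76 the 95% interval lay within a 1.5-fold change in either direction, which held for 0 of the 13 mitochondrial genes. The nuclear members highest per complex in CPM, without division by length, were Atp5b, Uqcrc2, Cox8a and Ndufs1. Atp5b differed by -0.028 ± 0.079 and Uqcrc2, a core protein of complex III, by 0.063 ± 0.086 (log2 fold change ± SE). Cox8a differed by 0.057 ± 0.13 and Ndufs1, the largest core subunit of complex I, by 0.045 ± 0.10.

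Each ligand was compared with Vehicle, and these 4 comparisons share the Vehicle libraries. No member of either genome passed in any of them. The share of all genes that passed was 0.00598% for Cort, 0% for RU486, 0.215% for C108 and 0% for C118. All 13 mitochondrial genes had lower means than Vehicle under each ligand, with median log2 fold changes of -0.50 for Cort, -0.21 for RU486, -0.47 for C108 and -0.18 for C118. In the same order, 2, 0, 1 and 0 of the 13 had an unadjusted p under 0.05. For the 6 genes with high counts the medians were -0.48, -0.11, -0.32 and -0.14. For the 6 from mt-Co2 to mt-Nd4l, most of them with uncertain counts, they were -0.70, -0.29, -0.67 and -0.30. With any 1 library left out the medians over all 13 ran from -0.64 to -0.38 for Cort, -0.30 to -0.069 for RU486, -0.64 to -0.29 for C108 and -0.31 to -0.022 for C118. The values nearest 0 came without Vehicle 23 for RU486 and C108 and without C118 38 for C118. For mt-Co1 the difference from Vehicle was -0.47 ± 0.24 for Cort (adjusted p = 0.46, edgeR), with a 95% interval of -0.96 to 0.028. Nuclear medians were 0.028, 0.074, 0.043 and 0.024 in the same order, with 2, 1, 1 and 1 members at an unadjusted p under 0.05. Of all genes, 11.6%, 8.16%, 17.4% and 8.01% had such a p. DESeq2 and limma-voom called 0 members of either genome in these 4 comparisons.

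The smallest p of a nuclear member against Vehicle was that of Cox6a2, the muscle isoform, in C118. Its levels were 3.41, 4.001, 2.06 and 2.20 CPM in Vehicle 3, 16, 23 and 29, and 1.59, 2.26, 1.74, 1.22 and 1.71 in C118 7, 13, 20, 33 and 38. The groups overlapped, with the difference at -0.78 ± 0.23 (log2 fold change ± SE, adjusted p = 0.27, edgeR). The 2 high Vehicle libraries, 3 and 16, were also those with thalamus marker scores of 1.09 and 2.01, against -0.40 and -0.34 in Vehicle 23 and 29. The 15 thalamus markers summed to 413 to 1346 CPM in Vehicle and 418 to 553 CPM in C118, all 15 were detected, and their part in the Cox6a2 levels was not tested. Ndufb7, an accessory subunit of complex I, had 0.32 ± 0.12 in C108 against Vehicle (adjusted p = 0.18, edgeR) and 0.25 ± 0.12 in Cort against Vehicle (adjusted p = 0.41).

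Between ligands, 6 direct comparisons gave 0 calls in either genome. The share of all genes passing was 0.0538% for Cort against RU486 and 0% in the other 5, and in each 1 or 2 nuclear members and 0 mitochondrial genes had an unadjusted p under 0.05. Over all genes that share was 5.34% for Cort against RU486, 4.88% for Cort against C108, 4.26% for Cort against C118, 5.74% for C108 against RU486, 1.83% for C118 against RU486 and 2.4% for C108 against C118. Mitochondrial medians lay between -0.36 (Cort minus RU486) and -0.0088 (C118 minus RU486). For the 6 mitochondrial genes with high counts they lay between -0.36 and -0.021 in the same 2 comparisons. Nuclear medians lay between -0.063 (C118 minus RU486) and 0.040 (C108 minus C118). For C118 minus RU486, 71 of 76 nuclear intervals lay within 1.5-fold, and 5 of 13 mitochondrial ones did. For the pair known by code names, C108 minus C118, the interval was within 1.5-fold for 71 of 76 nuclear members and for 1 of 13 mitochondrial genes, with the mitochondrial median at -0.25. DESeq2 and limma-voom called 0 members in all 6.

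Against Basal, with the Basal libraries shared by the 4 comparisons, 1 member passed. It was Atp5g1, 1 of the 3 genes for subunit c of ATP synthase, higher under RU486. In the Basal libraries 1, 9, 14 and 27 it had 56.5, 69.4, 60.5 and 58.3 CPM, and in RU486 libraries 6, 12, 19, 25 and 32 it had 72.2, 67.5, 87.2, 78.3 and 67.9 CPM. RU486 19 was the highest and Basal 9 lay inside the range of RU486, so the groups overlapped. The difference was 0.29 ± 0.080 (log2 fold change ± SE, adjusted p = 0.033, edgeR), a ratio of 1.22 with a 95% interval of 1.09 to 1.37. In the same comparison 5.45% of all genes passed and 2.61% were higher, so 1 of 76 nuclear members is below the background. The call ended without Basal 1 (adjusted p = 0.12), Basal 14 (0.089), Basal 27 (0.088), RU486 19 (0.096) or RU486 25 (0.062), with no filter (0.077), in a fit of these 2 groups alone (0.073) and without the 7 libraries numbered 1 to 9 (0.052). The 10 choroid plexus markers differed by a median of 2.84 (RU486 minus Basal, log2, 10 of 10 positive, 0 called). They summed to 4346 and 2682 CPM in RU486 6 and 25, above the 33.7 to 288 CPM of Basal. RU486 12, 19 and 32 lay inside the Basal range, at 93.1, 77.4 and 112 CPM, and the part of these markers was not tested. Without RU486 6, the library with the highest choroid plexus score, 7 nuclear members passed, and without RU486 25, the next, 0 did. RU486 6 also had the lowest mean centred nuclear level of its group, -0.15, against 0.031 to 0.34 in RU486 12, 19, 25 and 32. It had the fewest counts of all libraries too, 16.2 M. Leaving out the lowest library of the higher group by itself widens the difference, and the part of each trait was not tested.

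Atp5g1 in the other groups was 66.8 ± 3.46 CPM in Vehicle (SD, n = 4), 70.3 ± 6.79 in Cort, 72.7 ± 3.49 in C108 and 68.2 ± 4.58 in C118 (SD, n = 5 each). Against Basal its differences were 0.25 ± 0.080 in C108 (adjusted p = 0.062, edgeR), 0.20 ± 0.080 in Cort (0.15) and 0.16 ± 0.080 in C118 (0.29). The C108 libraries, at 69.6 to 78.1 CPM, did not overlap the Basal ones, at 56.5 to 69.4. RU486 did not differ from Vehicle by the test (0.16 ± 0.080, adjusted p = 0.62).

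Ndufa12, an accessory subunit of complex I, came next in RU486 against Basal. Basal libraries 1, 9, 14 and 27 had 43.4, 47.3, 45.3 and 42.2 CPM, and RU486 libraries 6, 12, 19, 25 and 32 had 51.2, 53.2, 60.3, 49.7 and 48.6 CPM. The groups did not overlap, but the difference of 0.24 ± 0.074 (log2 fold change ± SE) missed the threshold, at an adjusted p of 0.051 (edgeR). It passed in 6 of 20 alternatives, among them DESeq2, and its adjusted p ran from 0.025 to 0.14. Ndufv2, a core subunit of the electron-input arm of complex I, had 0.25 ± 0.091 (adjusted p = 0.10), and Ndufs4, an accessory subunit of the same arm, 0.37 ± 0.14 (adjusted p = 0.11).

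Over all nuclear members the differences from Basal were small and mostly positive. Medians were 0.10 in Cort (71 of 76 positive), 0.13 in RU486 (70 of 76), 0.11 in C108 (67 of 76) and 0.075 in C118 (64 of 76), with medians of all genes near 0. Besides Atp5g1, 0 nuclear members passed, where 6.27% of all genes passed in Cort, 6.04% in C108 and 3.87% in C118. Unadjusted p-values under 0.05 were reached by 4, 12, 4 and 2 members, in the order Cort, RU486, C108 and C118. DESeq2 called 0, 2, 1 and 0 of them, and limma-voom called 1 in RU486. The cytoplasmic ribosomal protein genes, 75 tested with 0 called, had medians of 0.096, 0.13, 0.079 and 0.068 in the same comparisons. An unadjusted p under 0.05 was reached by 19.5%, 22%, 21.8% and 18.9% of all genes in the same order, so the members' shares are below the background. In RU486 against Basal the medians by complex were 0.13 for complex I, 0.11 for III, 0.16 for IV and 0.13 for V, and without RU486 19, which held the highest mean nuclear level of the series, the median over all nuclear members was 0.054.

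Mitochondrial genes against Basal had medians of 0.0033 in Cort, 0.35 in RU486, 0.11 in C108 and 0.36 in C118, with 0 of 13 passing (smallest adjusted p = 0.20, edgeR, mt-Cytb in RU486) and 0, 1, 0 and 0 with an unadjusted p under 0.05. DESeq2 and limma-voom called 0. For the 6 genes with high counts the edgeR medians were 0.041, 0.42, 0.23 and 0.38 in the same order, with 4, 6, 6 and 6 positive. For the 6 from mt-Co2 to mt-Nd4l they were -0.077, 0.32, -0.046 and 0.30, with 2, 4, 2 and 5 positive. These sets of 6 were not followed when libraries were left out. With any 1 library left out the median over all 13 ran from -0.14 (without Basal 27) to 0.24 (without Basal 9) for Cort. For C108 it ran from -0.13 (without C108 21) to 0.35 (without Basal 9), so neither direction was stable over the 13. The medians over all 13 ran from 0.27 (without Basal 27) to 0.60 (without Basal 9) for RU486 and from 0.21 to 0.57 without the same libraries for C118. With the sample number as a covariate the medians were 0.18, 0.56, 0.41 and 0.54 in the same order. Without Cort 36, C108 39 and C118 38, an alternative chosen after the data were seen, the medians of Cort, C108 and C118 were 0.14, 0.26 and 0.55.

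**Figure D5:**
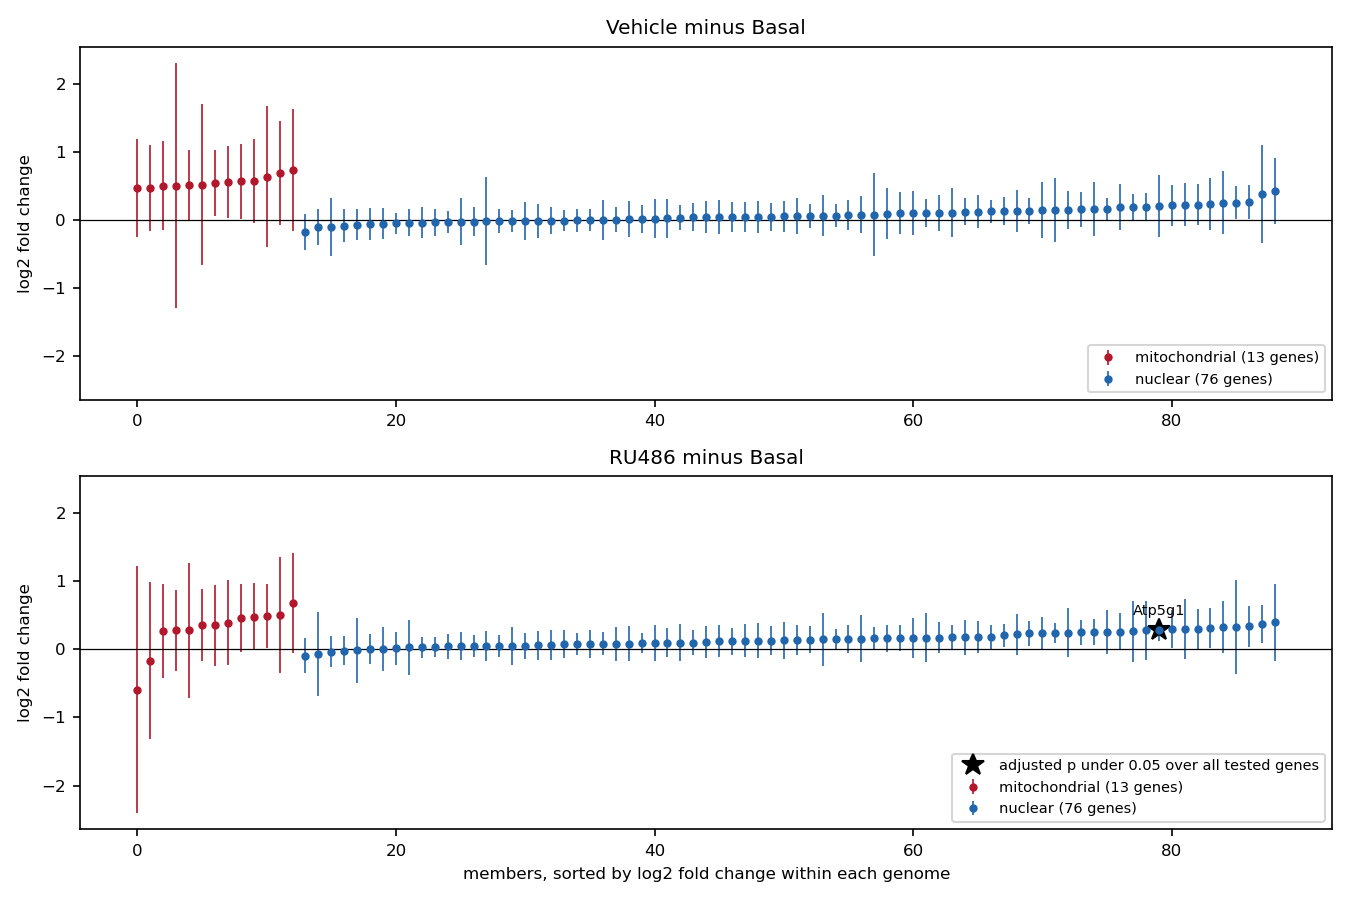
Log2 fold changes with 95% intervals for Vehicle minus Basal and RU486 minus Basal, for the 13 mitochondrial genes and the 76 tested nuclear members, sorted within each genome. Intervals of the mitochondrial genes are wide, with a median SE of 0.32 and 0.30 in the 2 comparisons, and the star marks Atp5g1, at 0.29, the only member with an adjusted p under 0.05.

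A test for any difference among the 6 groups also called 0 of 13 mitochondrial genes (0 at an unadjusted p under 0.05) and 0 of 76 nuclear members (2 at an unadjusted p under 0.05), where 4.73% of all genes passed and 18.6% had an unadjusted p under 0.05. The smallest adjusted p of a member was that of Atp5g1, at 0.18 (edgeR).

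Genes that build, express or regulate the chain were taken from 7 lists of 193 tested genes outside the members. These lists were drawn up with earlier results of these data known, so their counts are descriptions. Against Basal, 2 of 193 were higher in Vehicle (1.04%, against 4.11% of all genes), 6 in Cort (3.11% against 6.27%), 11 in RU486 with 1 lower (6.22% in all, against 5.45%), 8 in C108 with 1 lower (4.66% against 6.04%) and 3 in C118 with 1 lower (2.07% against 3.87%). None passed in a ligand against Vehicle or between ligands (edgeR). The 5 counts moved with the processing, from 0 to 19 when single libraries were left out. Medians over the 193 genes were 0.074, 0.10, 0.11, 0.11 and 0.093 in these 5 comparisons.

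Genes of mitochondrial DNA replication and expression held 3, 4, 3 and 3 of 35 tested members that were higher in Cort, RU486, C108 and C118 than in Basal, where 6.27%, 5.45%, 6.04% and 3.87% of all genes passed in either direction. In Vehicle 0 were, and whether the ligand groups differ from Vehicle in such counts was not tested. The median log2 fold change from Basal over the 35 genes was 0.090 in Vehicle and 0.099 in Cort. It was 0.11 in RU486, 0.12 in C108 and 0.086 in C118. Against Vehicle itself, 0 of 35 passed under any ligand (edgeR). Fastkd3, an RNA-binding protein of mitochondria, had 12.7, 14.7, 12.3 and 13.2 CPM in Basal 1, 9, 14 and 27 and 16.5, 18.0, 18.1, 17.9 and 16.7 CPM in RU486 6, 12, 19, 25 and 32. No RU486 library overlapped Basal. Its difference was 0.40 ± 0.071 in RU486 (adjusted p = 0.0013, edgeR), 0.35 ± 0.071 in C108 (0.0041), 0.31 ± 0.071 in C118 (0.013) and 0.27 ± 0.071 in Cort (0.021). In RU486 and C108 it passed in all alternatives run (20 and 21), and in Cort in 13 of 21. Fastkd3 also passed the test over the 6 groups (adjusted p = 0.0087).

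Ptcd1, a pentatricopeptide-repeat protein that acts on mitochondrial RNA, had 25.5 ± 2.89 CPM in Basal (SD, n = 4), 39.1 ± 5.57 in C108, 35.9 ± 5.32 in C118 and 34.4 ± 5.55 in Cort (SD, n = 5 each). It was higher than in Basal by 0.62 ± 0.13 in C108 (adjusted p = 0.0049, edgeR), 0.49 ± 0.13 in C118 (0.029) and 0.43 ± 0.13 in Cort (0.043). The call held in 21 of 21 alternatives in C108, 14 of 21 in C118 (adjusted p up to 0.17) and 12 of 21 in Cort (up to 0.23). Mterf4, which recruits a methyltransferase to the mitochondrial ribosome, was higher by 0.36 to 0.40 in all 4 ligand groups (adjusted p = 0.021 to 0.036, edgeR). The call held in 17 of 20 alternatives in RU486, 15 of 21 in Cort, 13 of 21 in C108 and 11 of 21 in C118, with adjusted p up to 0.14, 0.29, 0.14 and 0.17, and it ended in all 4 without Basal 1 or without Basal 14. Tfb2m, a factor for starting mitochondrial transcription, and Grsf1, an RNA-binding protein of mitochondrial RNA granules, were higher than Basal in RU486 by 0.38 ± 0.091 and 0.25 ± 0.068 (adjusted p = 0.014 and 0.032, edgeR), and the direct comparisons of RU486 with the other ligands called neither. Tfb2m had 12.4 ± 0.93 CPM in Vehicle (SD, n = 4) and 13.4 ± 1.27 in RU486 (SD, n = 5). Grsf1 had 97.0 ± 9.30 and 99.9 ± 3.40 CPM in the same groups. Tfam, which packs mitochondrial DNA, Polrmt, the mitochondrial RNA polymerase, and Lrpprc, which stabilises mitochondrial mRNA, did not pass in any comparison. Tfam had 34.7 ± 2.30 CPM in Basal and 36.3 ± 3.56 in Vehicle (SD, n = 4 each).

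Among 17 regulators of mitochondrial biogenesis, Nrf1 was the only one called, in Cort and in C108 against Basal. Of all genes, 6.27% and 6.04% passed in these comparisons in either direction, so 1 of 17 is near the background. Nrf1, a transcription factor of many respiratory chain genes, had 15.03 ± 1.52 CPM in Basal (SD, n = 4), 19.7 ± 1.25 in Cort and 19.4 ± 1.51 in C108 (SD, n = 5 each). It was higher by 0.39 ± 0.099 in Cort (adjusted p = 0.013, edgeR) and 0.37 ± 0.099 in C108 (0.024), and passed in 18 and 14 of 21 alternatives. Ppargc1a, the coactivator PGC-1 alpha, had 38.9 to 55.3 CPM in Vehicle, where Vehicle 29 was highest, and 33.7 to 38.3 CPM in Cort. The groups did not overlap, but the difference of -0.27 ± 0.087 did not pass (adjusted p = 0.24, edgeR).

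Of the assembly factors, 0 of 16 for complex I passed in any comparison with Basal, and 1 or 2 of 30 for complexes III to V did in each but C118. Cmc2, a small factor of complex IV assembly, was higher by 0.59 ± 0.12 in Vehicle (adjusted p = 0.0043, edgeR), 0.47 ± 0.12 in C108 (0.016), 0.46 ± 0.12 in RU486 (0.020) and 0.43 ± 0.12 in Cort (0.022). It had 5.71 ± 0.88 CPM in Basal and 8.59 ± 1.53 in Vehicle (SD, n = 4 each). Coa7, a further complex IV assembly factor, was higher in C108 by 0.39 ± 0.091 (adjusted p = 0.011). Etfdh, which feeds electrons from fatty acid oxidation into the chain, was higher in RU486 by 0.34 ± 0.092 (adjusted p = 0.028). Of 77 mitochondrial ribosomal protein genes, 1 was higher in Vehicle (Mrps17), 1 in Cort, 5 in RU486 and 2 in C108, where 4.11%, 6.27%, 5.45% and 6.04% of all genes passed in either direction. Mrpl49, the one called most often, was higher by 0.41 ± 0.097 in C108 (adjusted p = 0.012), 0.37 ± 0.097 in RU486 (0.026) and 0.31 ± 0.097 in Cort (0.049). The call held in 19 of 21 and 15 of 20 alternatives in C108 and RU486 but in 8 of 21 in Cort (adjusted p up to 0.33), where leaving out any 1 library but Basal 27 ended it.

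The one list gene that fell was Ndufa4l2, a relative of the complex IV subunit Ndufa4 that is known from pericytes and from low oxygen. It had 1.13, 1.10, 1.73 and 0.92 CPM in Basal 1, 9, 14 and 27, and between 0.49 and 0.74 in RU486. C108 libraries lay between 0.31 and 0.93 CPM, C118 libraries between 0.32 and 0.89. It fell by 1.06 ± 0.28 in C108 (adjusted p = 0.024, edgeR), by 1.03 ± 0.28 in C118 (0.036) and by 0.96 ± 0.28 in RU486 (0.043) on the log2 scale. The calls held in 13, 10 and 10 of 21, 21 and 20 alternatives. Endothelial markers, of vessel cells beside which pericytes lie, were lower in the same comparisons, with 5, 3 and 2 of 8 called lower and medians of -1.12, -0.85 and -0.64. They were also lower in Cort (median -0.80, 2 of 8 called) and Vehicle (-0.54, 1 of 8), where Ndufa4l2 was not called (adjusted p = 0.31 and 0.55, edgeR; 0.74 to 1.13 and 0.78 to 1.14 CPM). Of all genes, 6.04% passed in C108, 3.87% in C118, 5.45% in RU486, 6.27% in Cort and 4.11% in Vehicle against Basal, in either direction. The summed level of the endothelial markers was 96.2 to 147 CPM in Basal and 59.4 to 111 CPM in RU486. It was 29.2 to 99.1 CPM for C108 and 29.9 to 94.9 CPM for C118. All 8 were detected, and their part in the Ndufa4l2 levels was not tested.

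Promoters of the nuclear members were searched for motifs of factors known to act on this pathway. RefSeq promoters of GRCm38.p6, 250 bases before to 50 after the start, were found for 65 of the 79 genes, in 70 windows. The NRF1 motif, the palindrome in capitals in the Cox6a1 promoter printed here, occurred in 5 of 70 windows (7.14%), against 0.971% of all 32851 promoters in the table. These were Atp5g2, Atp5k, Cox6a1, Ndufa11 and Uqcrc1. The ETS motif CCGGAAG, the core of GABPA sites, occurred in 14 of 70 (20% against 8.86%), and the YY1 motif AAGATGGC in 10 of 70 (14.3% against 2.75%). The palindromic glucocorticoid receptor motif occurred in 0 of 70 (0.475% of all promoters). The last 3 letters of the ETS motif are the first 3 of the YY1 motif, so matches of the pair can overlap, and both strands were searched. A match describes letters in this window and nothing of binding. Cox6a1 is shown because its 250 bases before the start hold both an NRF1 and an ETS match (in capitals, the latter on the opposite strand), and Atp5g1 because it is the member that passed a test. Atp5g1 holds none of the 4 motifs, so no letters are in capitals.
Cox6a1, chr5:115348959-115349208, minus strand: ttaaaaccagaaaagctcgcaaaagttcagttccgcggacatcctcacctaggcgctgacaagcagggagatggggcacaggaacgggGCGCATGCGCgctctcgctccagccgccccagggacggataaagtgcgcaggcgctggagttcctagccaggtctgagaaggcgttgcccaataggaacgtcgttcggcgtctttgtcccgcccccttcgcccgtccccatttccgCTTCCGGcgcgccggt
Atp5g1, chr11:96075632-96075881, minus strand: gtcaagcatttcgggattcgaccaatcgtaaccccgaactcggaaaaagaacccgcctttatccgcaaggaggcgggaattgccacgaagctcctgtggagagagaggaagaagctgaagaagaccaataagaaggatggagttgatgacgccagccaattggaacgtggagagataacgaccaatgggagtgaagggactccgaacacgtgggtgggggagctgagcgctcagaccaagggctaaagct

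None of the 5 genes with an NRF1 match passed a test (edgeR). Of all genes, 3.87% to 6.27% passed in the comparisons with Basal, so 0 of 5 is not a result about the motif. Cox6a1 had 223 ± 10.7 CPM in Basal (SD, n = 4) and 251 ± 34.8 in RU486 (SD, n = 5), and the groups overlapped.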

How the data were processed

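The table holds read counts per gene that the authors deposited as whole numbers for 28 libraries, and per the labels' protocols the libraries were mRNA-enriched, stranded and 100 bp paired-end. HTSeq 0.6.1 and the build mm10 are named in the submitters' processing notes, while no source used here gives the aligner, annotation release or counting settings. The 5 summary rows that name no gene held 12.6% to 19.7% of all reads and were left out. Libraries total 16.2 to 20.3 M counts. No source says that libraries come from separate mice, so p-values measure the spread between these libraries. Replicates of a group differed beyond sampling noise (chi-square per degree of freedom of at least 5.94).

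All 28 libraries were fitted together with edgeR 4.0.16 (TMM scaling, filterByExpr with a minimum count of 10, 16735 genes kept, robust quasi-likelihood test, 22 residual degrees of freedom), with 15 comparisons of 2 groups and 1 test over the 6 groups. P-values were adjusted over all genes by Benjamini-Hochberg, with calls at 0.05. Alternatives were limma-voom (limma 3.58.1), DESeq2 1.42.0, other scaling and filters, covariates, fits on 2 groups and libraries left out. CPM per kb uses exon unions of GENCODE annotation.

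The members and lists were chosen with earlier results of these data known. Named genes are the mitochondrial genes, the highest nuclear member per complex, the isoform genes, the called members or else the 5 with the smallest p per comparison, and up to 4 called genes per list and comparison; Cox4i2, Ndufc2 and Uqcrb are also described for values seen in the data.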

Additional observations from a re-analysis of the deposited data

Results flagged for a closer look

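In 19 of 336 groups of libraries examined, over 56 genes and summary values, 1 library lay further from its group than Dixon's 95% limit, and chance alone gives about 1 in 20. The 19 fell on 15 libraries and genes of both genomes.

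C118 38 was low for 3 mitochondrial genes, with 12131 CPM of mt-Co1 against 25427 to 30587 in the other C118 libraries, 4006 CPM of mt-Nd1 and 3188 CPM of mt-Nd5. It was also high for Polrmt, the mitochondrial RNA polymerase, at 26.8 CPM. RU486 25 was low for mt-Nd4 at 4912 CPM, and RU486 32 for mt-Nd4l at 1.002 CPM. Cort 17 was high for mt-Nd6 at 87.3 CPM, against 38.6 to 44.8 in the other Cort libraries, and Cort 11 for mt-Atp8 at 4.02 CPM.

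Among nuclear members, Cox6b1 was high in Cort 4 at 192 CPM and in C108 26 at 227 CPM. Atp5g1 was high in Cort 4 at 82.2 CPM and in C118 13 at 76.4 CPM. Cox7a1 was high in C118 33 at 1.16 CPM and Cox7a2l, a complex III and IV assembly protein, in Vehicle 3 at 103 CPM. Of the list genes, Ppargc1a was high in Vehicle 29 at 55.3 CPM and in C118 7 at 41.1 CPM, and Mterf4 in Basal 27 at 15.5 CPM. Grsf1 was low in Basal 14 at 79.3 CPM and Coa7 in C108 8 at 17.6 CPM.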

How the results depend on the processing

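The count of called mitochondrial genes was 0 in every comparison under every alternative run, and no value turned its direction where called. The count of called nuclear members in RU486 against Basal was 1; it was 0 with no filter, 0 with only the 2 groups, 0 without the 7 libraries numbered 1 to 9, 2 with tissue scores, 2 with the sample number, 2 with DESeq2, and 0 to 7 when single libraries were left out (7 without RU486 6). It was 1 rather than 0 in Cort against Basal with tissue scores and in C108 against Basal with DESeq2, and 0 to 1 in C108 and Vehicle against Basal when single libraries were left out (1 without Basal 9 and without Vehicle 3).

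List genes called in Vehicle against Basal (2) were 1 with no filter, 6 with tissue scores, 6 with the ribosomal protein share, 4 with the sample number, 6 with DESeq2, 0 with only the 2 groups, 0 without Vehicle 16 and 29, and 1 to 8 when single libraries were left out. In Cort (6) they were 1 with no filter, 10 with DESeq2, 3 without Cort 36, C108 39 and C118 38, 1 without the libraries numbered 1 to 9, and 0 to 8 with single libraries left out. In RU486 (12) they were 4 with no filter, 7 with tissue scores, 5 without the libraries numbered 1 to 9, and 1 to 19. In C108 (9) they were 4 with tissue scores, 5 with the sample number, 15 with DESeq2, and 2 to 19. In C118 (4) they were 1 with no filter, 0 with tissue scores, 9 with the ribosomal share, 2 with the sample number, 11 with DESeq2, 1 with only the 2 groups, 1 without the libraries numbered 1 to 9, and 0 to 6. The cause of these shifts was not tested. With the longest transcript as length, nuclear levels were 62.0, 104, 106 and 94.7 CPM per kb for complexes I, III, IV and V.

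The fits without the libraries numbered 1 to 9 and without Cort 36, C108 39 and C118 38 were chosen after the data were seen. No paired analysis was possible because each sample number occurs once and is shared by no other group. Depth limits mt-Atp8, with 2 counts in its lowest library, and the isoform genes near 1 CPM.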

Other observations

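The mitochondrial ribosomal RNAs, which belong to neither the members nor the lists, were lowest in Cort 36, C108 39 and C118 38. mt-Rnr1, the small-subunit RNA, had 1917, 1698 and 1772 CPM there, and 2205 to 4816 CPM in the other 25 libraries. mt-Rnr2, the large-subunit RNA, had 2617, 2346 and 2329 CPM, and 3119 to 6876 CPM in the others. Basal 27, the fourth library with low mt-Co1, had the lowest mt-Rnr1 of the other 25 (2205 CPM). The libraries were enriched for mRNA, and no comparison was made on these RNAs.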
